A study of Mus musculus with 6 samples.

Results

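Triglyceride, the storage lipid of fat cells, is built in 4 steps, and 6 genes that encode enzymes of these steps were followed here in the inguinal white fat of mice with an adipocyte deletion of Igf1r, the gene of the insulin-like growth factor 1 receptor. The genes were chosen by symbol, as Gpam, Gpat3, Agpat2, Lpin1, Dgat1 and Dgat2, and all 6 were found among the 14861 genes of the deposited table. The tissue is the subcutaneous fat pad of the groin. Its RNA was sequenced from 3 AdIGF1RKO mice and 3 Flox mice, and each library is named by its group and the replicate number of its label.

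In AdIGF1RKO mice a floxed Igf1r allele (B6;129-Igf1rtm2Arge/J) was removed by Cre recombinase from an adiponectin promoter transgene (Adipoq-Cre), so the deletion is aimed at adipocytes and not at the vessel, immune and stromal cells of the pad. The Flox mice were littermates with the floxed allele, and the labels do not spell out whether any carried Cre. The diet of all mice, a chow in which fat supplied 10% of the calories, lasted 24 weeks. Tissue was taken after an overnight fast, so every level below is that of fasted fat. The labels name no pooling of mice and give neither sex nor age at the end of the diet. Adipocyte markers were abundant in all 6 libraries, with Adipoq between 3348 and 4927 and Plin1 between 1320 and 1605 scaled CPM. Scaled CPM are reads per 1000000 after each library was divided by its median-ratio size factor.

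Triglyceride synthesis begins with glycerol-3-phosphate, which GPAT enzymes join to a fatty acyl-CoA to give lysophosphatidate. An AGPAT enzyme adds another acyl chain to give phosphatidate, a lipin removes the phosphate to give diacylglycerol, and a DGAT enzyme adds the last acyl chain. Gpam encodes the mitochondrial GPAT1 and Gpat3 the form of the endoplasmic reticulum that is prominent in white adipocytes. Mice and people without AGPAT2, and mice without lipin-1 (the fld strain), have lipodystrophy. DGAT1 and DGAT2 catalyse the same reaction but belong to unrelated protein families. Mice without Dgat2 are born almost without triglyceride and die soon after birth, whereas mice without Dgat1 live and are lean.

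The RefSeq table of start-site sequences (build GRCm38.p6) held windows for 4 of the 6 genes, Gpam (with more than 1 start site), Gpat3, Agpat2 and Lpin1. Each window runs from 250 bases before an annotated start to 50 bases after it. The first listed window of Gpam and those of Gpat3 and Lpin1 are shown. Gpam and Gpat3 encode alternative enzymes of the same step. Lpin1 was lower in AdIGF1RKO without overlap with median-ratio scaling, as were 3.86% of all tested genes, and did not pass limma. Capitals mark motif matches on either strand.
Gpam, chr19:55127189-55127488, minus strand: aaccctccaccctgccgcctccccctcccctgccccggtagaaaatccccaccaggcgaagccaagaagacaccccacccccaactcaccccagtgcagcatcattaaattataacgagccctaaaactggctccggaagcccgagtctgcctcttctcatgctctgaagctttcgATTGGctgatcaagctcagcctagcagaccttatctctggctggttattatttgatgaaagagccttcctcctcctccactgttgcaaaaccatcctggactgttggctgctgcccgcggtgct
Gpat3, chr5:100845979-100846278, plus strand: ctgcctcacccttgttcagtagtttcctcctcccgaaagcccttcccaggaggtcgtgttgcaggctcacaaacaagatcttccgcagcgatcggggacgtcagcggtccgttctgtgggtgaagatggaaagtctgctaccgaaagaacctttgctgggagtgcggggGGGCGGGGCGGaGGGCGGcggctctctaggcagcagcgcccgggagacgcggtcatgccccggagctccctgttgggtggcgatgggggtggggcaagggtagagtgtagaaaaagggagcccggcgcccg
Lpin1, chr12:16610917-16611216, minus strand: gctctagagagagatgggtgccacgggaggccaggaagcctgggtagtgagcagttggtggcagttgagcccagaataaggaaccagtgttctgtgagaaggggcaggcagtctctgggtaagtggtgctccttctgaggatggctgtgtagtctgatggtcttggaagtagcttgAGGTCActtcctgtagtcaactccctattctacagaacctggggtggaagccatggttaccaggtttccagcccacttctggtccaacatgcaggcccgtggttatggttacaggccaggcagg
The letters searched were CACGTG, known as the E-box, AGGTCA, the core bound by many nuclear receptors, and GGGCGG, the GC box. The CCAAT box was searched as well, as were the TATA box as TATAAA and the sterol element as TCACNCCAC. None of these motifs is contained in another. In the window shown, Gpam had a CCAAT box on the opposite strand, and its other window, not shown, had a nuclear receptor core and a GC box. Gpat3 had 3 GC boxes of which the first and the next share a base, and Lpin1 had 1 nuclear receptor core. The Agpat2 window, also not shown, had 3 GC boxes. Of all 32851 windows in the table, 37.4% held CCAAT, 35.7% a GC box and 16.3% a nuclear receptor core. The E-box was in 7.15% of all windows and in none of the 5 windows of these genes. A match describes the letters and not binding.

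Over the whole transcriptome, limma called 0 of 12993 tested genes (0%) at an adjusted p under 0.05, where a mean of at least 1 scaled CPM was required for testing. All 6 enzymes passed that filter, and 0 of the 6 were called. At an unadjusted p under 0.05 limma counted 385 genes (582 with the replicate number as a block). edgeR's quasi-likelihood test called 0 genes with 378 at that unadjusted level, and DESeq2 called 23 with 494. The DESeq2 count ran from 19 without AdIGF1RKO 2 to 56 without AdIGF1RKO 1, and was 63 with the replicate block. The libraries held between 60617147 and 70695527 reads, and each enzyme had at least 2461 reads in each library, so counting error was small beside the spread between mice. Skeletal muscle RNA varied: its 18 measured markers took 0.0581% to 4.93% of reads in AdIGF1RKO and 0.114% to 13.6% in Flox, highest in AdIGF1RKO 3 and Flox 3. Igf1r itself had 6.11, 5.27 and 4.85 scaled CPM in AdIGF1RKO, against 6.44, 6.47 and 5.86 in Flox, which overlapped. In whole tissue, fewer cells of a type and less RNA per cell cannot be told apart.

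The last step stood out among the enzymes. Dgat2 was higher in AdIGF1RKO fat and Dgat1 was, on average, lower. Dgat2 had 788, 1218 and 1056 scaled CPM in AdIGF1RKO, against 602, 549 and 631 in Flox. Every AdIGF1RKO library lay above every Flox library, with AdIGF1RKO 1 nearest to the Flox range. The means were 1021 ± 217 in AdIGF1RKO and 594 ± 41.7 in Flox (SD, n = 3 each), a ratio of 1.72. On the log2 scale the difference was 0.76 (standard error 0.17, 95% interval from 0.34 to 1.17).

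This difference did not pass limma after adjustment over all genes (adjusted p = 0.998, unadjusted p = 0.00382, rank 19 of 12993 by p). DESeq2 called it (log2 difference 0.78, adjusted p = 0.0167), as it did 0.178% of the genes it tested. That DESeq2 call was lost without AdIGF1RKO 2 (adjusted p = 0.180), AdIGF1RKO 3 (0.166), Flox 1 (0.120) or Flox 2 (0.136), and without both muscle-rich libraries (0.0737). It was kept without AdIGF1RKO 1 (1.48e-09), without Flox 3 (0.0124) and with the replicate number as a block (0.00638). Within same-numbered pairs, AdIGF1RKO over Flox was 1.31, 2.22 and 1.67. Without both muscle-rich libraries the limma log2 difference of Dgat2 was 0.77, so it was as large without them. With the values as deposited the groups overlapped, at 742439, 1122501 and 1182363 in AdIGF1RKO and 639367, 574557 and 777100 in Flox, and the log2 difference was 0.60.

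Dgat1 had 170.0, 139 and 150.5 scaled CPM in AdIGF1RKO, against 169, 199 and 186 in Flox. AdIGF1RKO 1 and Flox 1 were nearly equal, and the other AdIGF1RKO libraries lay below all Flox libraries. The means were 153 ± 15.7 in AdIGF1RKO and 185 ± 14.8 in Flox (SD, n = 3 each). The log2 difference was -0.27 with a 95% interval from -0.54 to -0.003, which did not pass limma (adjusted p = 0.998, unadjusted p = 0.0480) or DESeq2 (adjusted p = 1.00). Of the 6 enzymes, Dgat2 was the 1 higher at an unadjusted p under 0.05, against 1.83% of all tested genes, and Dgat1 the 1 lower, against 1.13%. With the replicate number as a block Dgat1 had an unadjusted p of 0.0842 (limma, 95% interval from -0.59 to 0.05). In that fit 0 of the 6 enzymes were lower at that level, beside 312 of the 12993 tested genes. With equal sums the log2 difference of Dgat1 was -0.15 (limma unadjusted p = 0.413). With the values as deposited it was -0.43, and all AdIGF1RKO libraries lay below all Flox libraries. Values as deposited gave a median log2 difference of -0.17 over all tested genes, and only 14.8% of genes were higher in AdIGF1RKO. The share of all genes without overlap in those values was not computed. For Dgat1 the unadjusted p was 0.0547 with TMM scaling (limma) and 0.0598 with edgeR.

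**Figure D1:**
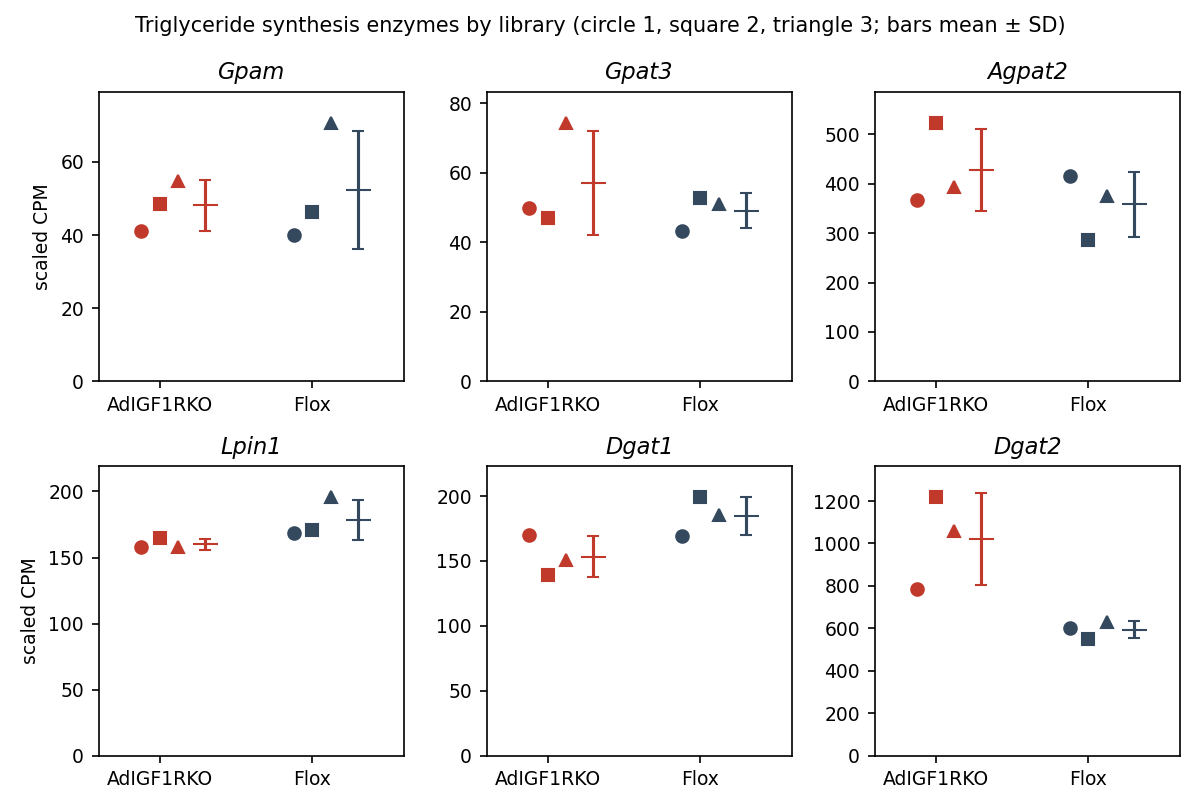
Scaled CPM (vertical axes, from 0) of each enzyme gene in the 3 AdIGF1RKO libraries (left) and the 3 Flox libraries (right), with the mean and SD as bars. Dgat2 lies between 788 and 1218 in AdIGF1RKO, above the Flox range of 549 to 631, while the groups of Gpam, Gpat3, Agpat2 and Dgat1 overlap.

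Because both DGAT genes are counted in the same library, their ratio does not depend on how libraries are scaled. Dgat2 had 4.63, 8.77 and 7.02 reads per read of Dgat1 in AdIGF1RKO, against 3.55, 2.76 and 3.40 in Flox. All AdIGF1RKO ratios were above all Flox ratios, with means of 6.81 ± 2.07 in AdIGF1RKO and 3.24 ± 0.422 in Flox (SD, n = 3 each). The ratio was 2.05-fold higher by the mean of logs (two-sided exact permutation p = 0.1, the smallest that 3 against 3 allows, and 0.3 after adjustment over the 3 ratios examined). Leaving out each library in turn gave log2 differences of this ratio from 0.83 without AdIGF1RKO 2 to 1.29 without AdIGF1RKO 1. Per kilobase of exon, Dgat2 made up 78.9%, 87.6% and 85.0% of the summed Dgat2 and Dgat1 level in AdIGF1RKO, and 74.1%, 69.0% and 73.3% in Flox.

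Both genes were also set against Plin1, which encodes perilipin-1, the coat protein of the adipocyte lipid droplet, a comparison chosen after the values were seen and given without a test. Dgat2 had 0.491, 0.831 and 0.733 reads per read of Plin1 in AdIGF1RKO and 0.429, 0.374 and 0.478 in Flox. Dgat1 had 0.106, 0.0948 and 0.104 in AdIGF1RKO and 0.121, 0.136 and 0.141 in Flox. Relative to Plin1 neither gene's groups overlapped, Dgat2 being higher and Dgat1 lower in AdIGF1RKO, whereas the groups of Dgat1 overlapped in scaled CPM. The share of all genes that separate when divided by Plin1 was not computed. No other adipocyte marker was tried as the divisor, so whether the separation of Dgat1 holds with another was not tested. Plin1 itself had a log2 difference of 0.11 (limma adjusted p = 0.998). The 12 adipocyte markers had a median log2 difference of -0.09, 4 positive and 8 negative, beside -0.02 for all tested genes. Leptin (Lep), chosen as an adipocyte marker, was the 1 of these 12 without overlap between the groups. Of all tested genes, 4.41% were higher and 3.86% lower without overlap. Lep had 396, 580.0 and 502 scaled CPM in AdIGF1RKO and 200.2, 277 and 159 in Flox. Its log2 difference of 1.23 was larger than that of Dgat2 and did not pass limma (adjusted p = 0.998).

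**Figure D2:**
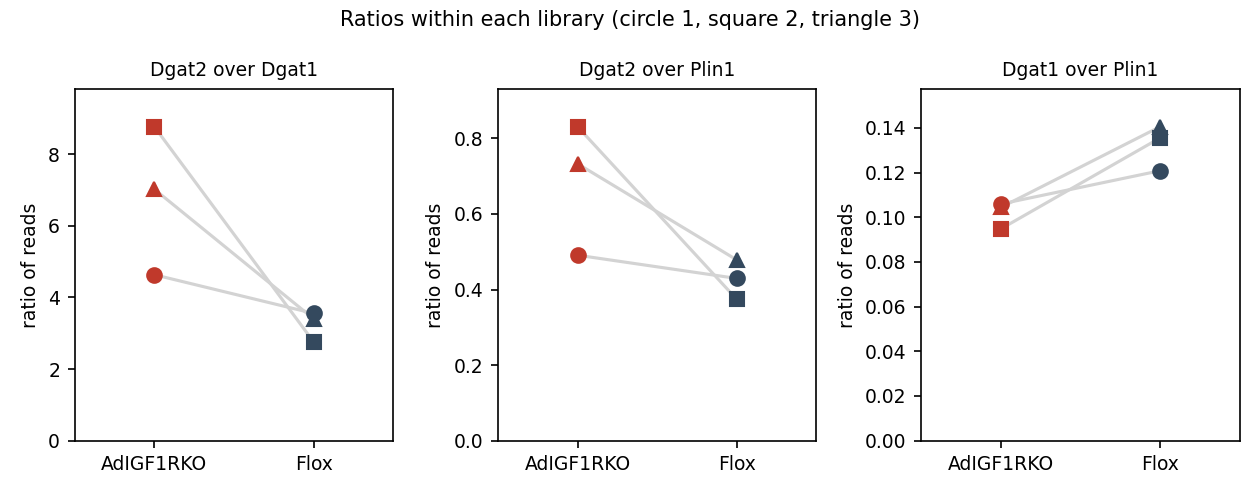
Ratios of reads within each library (vertical axes, from 0) for Dgat2 over Dgat1, Dgat2 over Plin1 and Dgat1 over Plin1, with AdIGF1RKO left and Flox right and lines joining same-numbered libraries. Dgat2 over Dgat1 lies between 4.63 and 8.77 in AdIGF1RKO and between 2.76 and 3.55 in Flox.

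In the first step, Gpam and Gpat3 differed little between the groups, and each had 1 high library. Gpam had 41.1, 48.4 and 54.9 scaled CPM in AdIGF1RKO, against 40.0, 46.3 and 70.6 in Flox. Its highest value was in Flox 3 and its next in AdIGF1RKO 3, which are also the libraries with the most muscle RNA. The log2 difference was -0.09 with a 95% interval from -0.63 to 0.45, and it was 0.15 without Flox 3, 0.049 without both muscle-rich libraries, 0.028 with the muscle markers as a covariate and 0.035 with libraries scaled to equal sums. It did not pass limma (adjusted p = 0.998).

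Gpat3 had 49.8, 47.2 and 74.4 scaled CPM in AdIGF1RKO, against 43.4, 52.9 and 51.0 in Flox. The 74.4 of AdIGF1RKO 3 was the high value, and without that library the log2 difference was -0.014, against 0.19 with all libraries (95% interval from -0.27 to 0.64, limma adjusted p = 0.998). The ratio of Gpam to Gpat3 was 0.825, 1.03 and 0.738 in AdIGF1RKO and 0.922, 0.875 and 1.39 in Flox. These overlapped (two-sided exact permutation p = 0.4 for this ratio, also after adjustment over 3 ratios).

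Agpat2, whose product adds the next acyl chain, had 368, 523 and 393 scaled CPM in AdIGF1RKO, against 415, 287 and 375 in Flox. AdIGF1RKO 2 was the highest of all and Flox 2 the lowest, and the remaining libraries lay close together. The means were 428 ± 83.0 in AdIGF1RKO and 359 ± 65.7 in Flox (SD, n = 3 each). The log2 difference was 0.25 with a 95% interval from -0.20 to 0.71 (limma adjusted p = 0.998), 0.10 without AdIGF1RKO 2 and likewise 0.10 without Flox 2. AdIGF1RKO 2 was also the library with the most RNA of lipid-laden macrophages. Trem2, a receptor of such cells, had 6.04, 62.8 and 9.15 in AdIGF1RKO and 7.42, 12.1 and 8.52 in Flox, and the summed level of all 9 markers was 3760 to 4969 in AdIGF1RKO and 3469 to 4464 in Flox, of which Lpl, also an adipocyte gene, made up the most. Dgat2 had its highest and Dgat1 its lowest value in that same library. Without it the Dgat2 log2 difference was 0.62 and that of Dgat1 -0.20, and the part of macrophage RNA in these results was not tested further.

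Lpin1, which encodes the phosphatidate phosphatase lipin-1, had 158, 165 and 158 scaled CPM in AdIGF1RKO, against 168, 171 and 196 in Flox. All AdIGF1RKO libraries lay below all Flox libraries, and Flox 3 was the highest. The gap between the groups was small, and the means were 160.1 ± 4.06 in AdIGF1RKO and 178 ± 15.1 in Flox (SD, n = 3 each). The log2 difference was -0.15 with a 95% interval from -0.37 to 0.07 (limma adjusted p = 0.998). It was -0.08 without Flox 3 and -0.03 with libraries scaled to equal sums, where the groups overlapped. Of the 6 enzymes 1 was lower without overlap (Lpin1), against 3.86% of all tested genes, and 1 was higher without overlap (Dgat2), against 4.41%. The other lipins were scarcer. The ratio of Lpin1 to Lpin2 reads was 18.8, 21.0 and 18.6 in AdIGF1RKO and 20.7, 20.5 and 23.9 in Flox, which overlapped (two-sided exact permutation p = 0.3, 0.4 after adjustment).

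**Figure D3:**
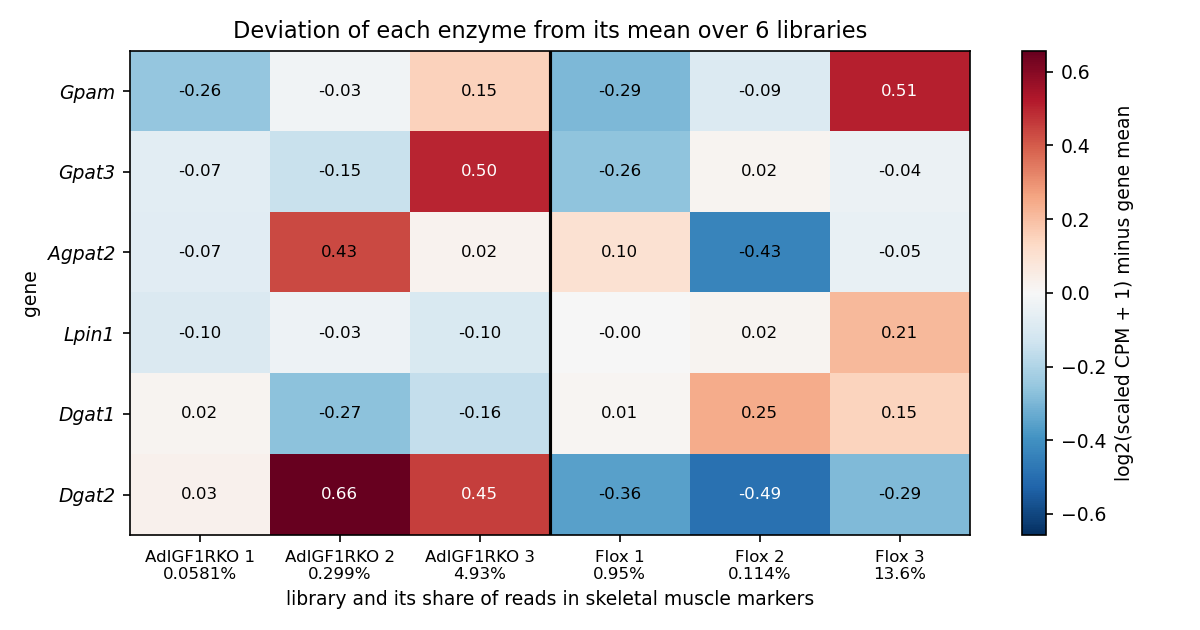
Deviation of log2(scaled CPM + 1) from each gene's mean over the 6 libraries (colour and printed value), with AdIGF1RKO libraries left and Flox libraries right of the line and the share of reads in skeletal muscle markers under each name. Dgat2 is above its mean in all 3 AdIGF1RKO libraries, Gpam is highest in Flox 3 at 0.51, Gpat3 in AdIGF1RKO 3 at 0.50 and Agpat2 in AdIGF1RKO 2 at 0.43.

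Levels of different genes were compared per kilobase of exon, with lengths from GENCODE M21 on GRCm38, an earlier build than the GRCm39 of the submitters' processing notes. Dgat2 was the highest, at 436 ± 92.8 scaled CPM per kilobase in AdIGF1RKO and 254 ± 17.8 in Flox. Agpat2 followed with 242 ± 47.0 in AdIGF1RKO and 203 ± 37.2 in Flox, and Dgat1 with 81.1 ± 8.33 in AdIGF1RKO and 97.8 ± 7.86 in Flox. Lpin1 had 25.0 ± 0.634 in AdIGF1RKO and 27.8 ± 2.35 in Flox. Gpat3 had 16.3 ± 4.28 in AdIGF1RKO and 14.0 ± 1.43 in Flox, and Gpam 7.55 ± 1.08 in AdIGF1RKO and 8.21 ± 2.54 in Flox (SD, n = 3 each). This order held in each of the 6 libraries. In Flox, Dgat2 and Agpat2 came nearest to each other in Flox 1, at 257 and 235 scaled CPM per kilobase. Dgat2 alone made up 41.0% to 55.9% of the summed level of the 6 genes per kilobase in the 6 libraries.

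Relatives of the enzymes did not pass limma in either direction. Gpat2 and Dgat2l6 were on the lists but were not found by symbol in the deposited table, so they could not be analysed. Of 6 tested acyltransferase relatives 0 were called, with 1 positive, 5 negative and a median log2 difference of -0.06. Agpat5 had a log2 difference of 0.16, Agpat1 -0.14, Agpat3 -0.07 and Lclat1, which encodes a lysocardiolipin acyltransferase, -0.055. Of 7 phosphatidate phosphatases and lipin regulators 0 were called, with a median of -0.10. Plpp1, a membrane lipid phosphate phosphatase, averaged 36.5 ± 2.78 scaled CPM in AdIGF1RKO and 45.4 ± 9.86 in Flox, with its highest value in Flox 3. Lpin3 had a log2 difference of 0.10, Plpp3 -0.11 and Cnep1r1, a subunit of the phosphatase that acts on lipins, -0.10.

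Diacylglycerol is also made or acylated by relatives of DGAT2 and by TMEM68. Of 4 tested genes on this list, which also holds Tmx1, 0 were called by limma, with a median log2 difference of 0.09. Mogat2, a monoacylglycerol acyltransferase gene of the DGAT2 family, had 1.71, 2.66 and 2.93 scaled CPM in AdIGF1RKO, against 1.74, 1.06 and 0.684 in Flox. Only AdIGF1RKO 1 and Flox 1 overlapped, and each value rested on 33 to 188 reads. Its log2 difference was 0.68 with a 95% interval from 0.10 to 1.27 (limma adjusted p = 0.998, unadjusted p = 0.0290). In the RefSeq annotation of GRCm38.p6 Mogat2 is the next protein-coding gene after Dgat2 on chromosome 7. Mogat1 averaged 66.0 ± 4.81 in AdIGF1RKO and 72.7 ± 2.45 in Flox. Tmem68, which encodes a triglyceride synthase in human cells, averaged 18.0 ± 3.42 in AdIGF1RKO and 14.8 ± 1.15 in Flox, and Tmx1, whose product restrains TMEM68 in human cells, averaged 48.9 ± 2.11 in AdIGF1RKO and 51.6 ± 0.957 in Flox.

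**Figure D4:**
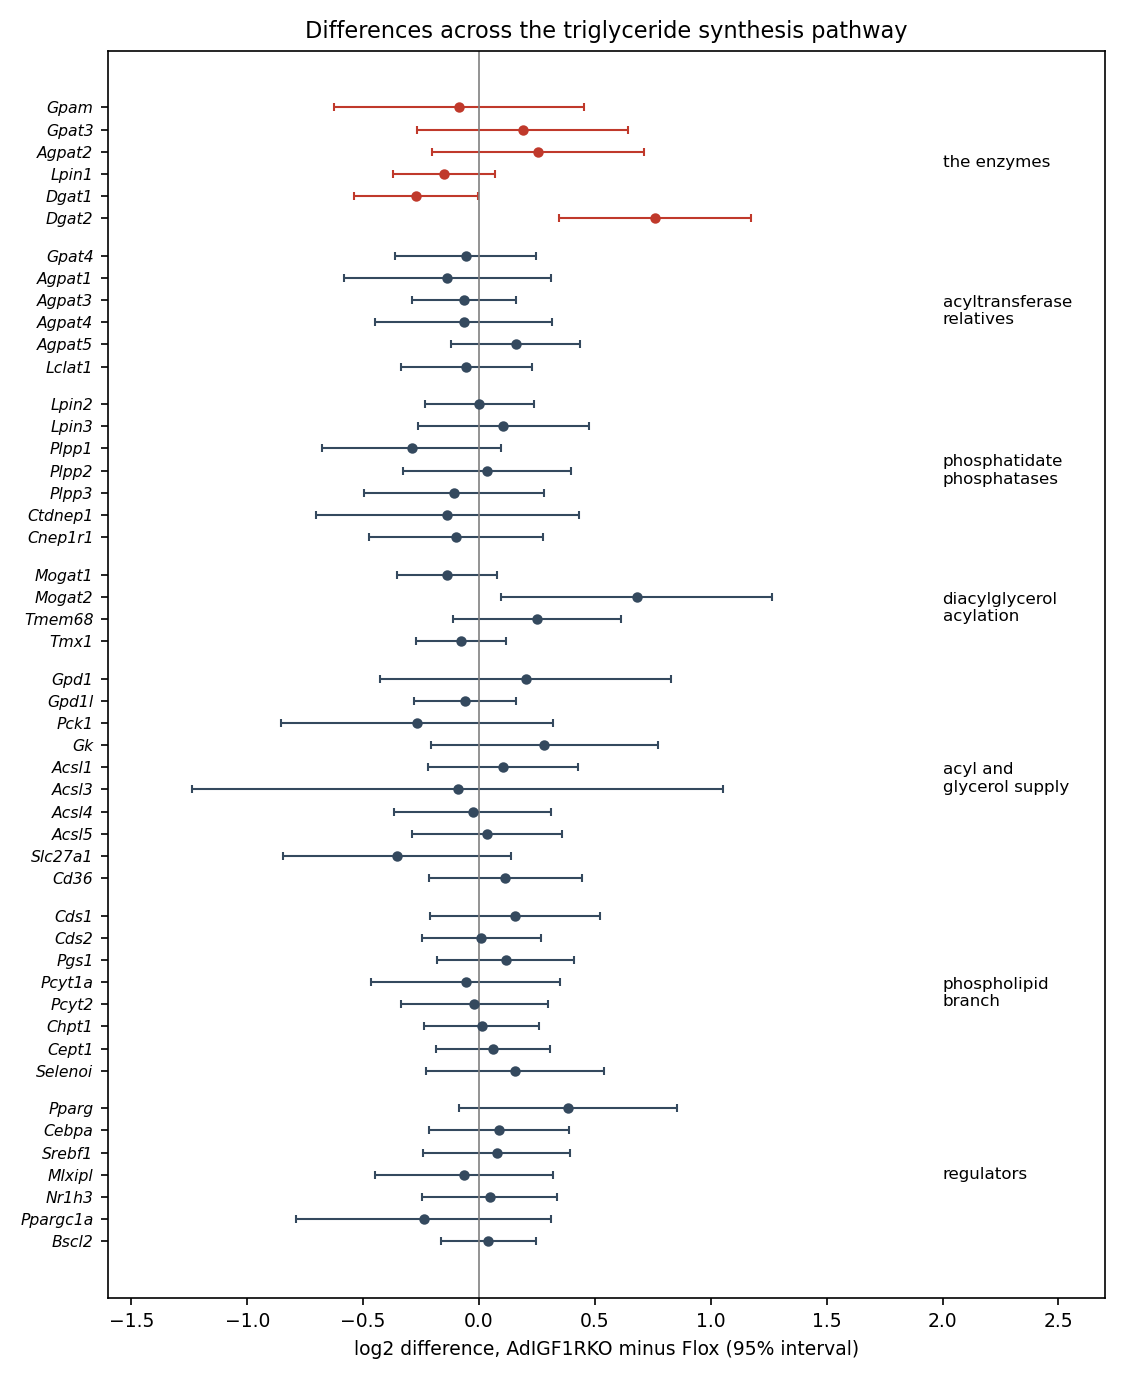
Log2 differences (horizontal axis, AdIGF1RKO minus Flox) with 95% intervals from limma for the 6 enzymes (red, top) and the tested relatives, suppliers, branch enzymes and regulators (dark). Dgat2 at 0.76 lies farthest from 0, followed by Mogat2 at 0.68, and the intervals of all genes but these and Dgat1 span 0.

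Substrates and competing branches showed no call either. Of 10 genes for acyl-CoA and glycerol-3-phosphate supply 0 were called, with 5 positive, 5 negative and a median log2 difference of 0.00. Slc27a1, the fatty acid transporter FATP1, averaged 187 ± 40.0 scaled CPM in AdIGF1RKO and 239 ± 48.4 in Flox. Pck1, the enzyme of glyceroneogenesis, averaged 1797 ± 580.1 in AdIGF1RKO and 2107 ± 306 in Flox, Gk, the glycerol kinase gene, 5.44 ± 1.56 in AdIGF1RKO and 4.23 ± 0.684 in Flox, and Cd36, the fatty acid translocase, 2874 ± 177 in AdIGF1RKO and 2670 ± 369.8 in Flox. Of 8 genes of the branch to phospholipids 0 were called, with a median of 0.04 and log2 differences of 0.16 for Cds1, 0.15 for Selenoi, 0.12 for Pgs1 and 0.06 for Cept1.

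Of 7 regulators 0 were called, with a median log2 difference of 0.05. Pparg, the nuclear receptor that drives adipocyte lipid storage genes, had 159, 266 and 198 scaled CPM in AdIGF1RKO, against 140, 173 and 154 in Flox. Its groups overlapped, and the highest value was again in AdIGF1RKO 2 (log2 difference 0.38, 95% interval from -0.09 to 0.86, limma adjusted p = 0.998). Cebpa had a log2 difference of 0.09, Srebf1, a driver of lipid synthesis genes, 0.08, and Ppargc1a -0.24. Of 8 endothelial markers limma called 0, and 5 were higher in AdIGF1RKO without overlap, against 4.41% of all tested genes. Their median log2 difference was 0.18, and their summed level was 524 to 609 in AdIGF1RKO and 458 to 518 in Flox. The part of vessel RNA in the enzymes' values was not tested.

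Genes with profiles most like those of the enzymes were ranked by the mean absolute difference of centred log2 profiles over the 6 libraries, among 8921 genes with a mean of at least 10 scaled CPM. For Dgat2 they were Syt12, a synaptotagmin, with a mean difference of 0.11 log2 units, Trabd2b, a Wnt-cleaving metalloprotease, with 0.11, and Ddr1, a collagen receptor, with 0.12. Syt12 had 20.6, 33.6 and 36.7 scaled CPM in AdIGF1RKO, against 14.7, 14.9 and 17.8 in Flox. None of these was as close to Dgat2 as the nearest genes were to the other enzymes, whose profiles span less. For Dgat1 the nearest were Ncor1, Srbd1 and Oas2 (0.037 to 0.039), and for Lpin1 Rab5if, Rplp0 and Tbc1d31 (0.011 to 0.021). For Agpat2 they were Tgif1, Rbm3 and Itpk1 (0.052 to 0.071), for Gpat3 Nedd4l, St6galnac2 and Sun2 (0.067 to 0.083), and for Gpam Svip, Hint3 and Ndufb4 (0.034 to 0.044).

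**Figure D5:**
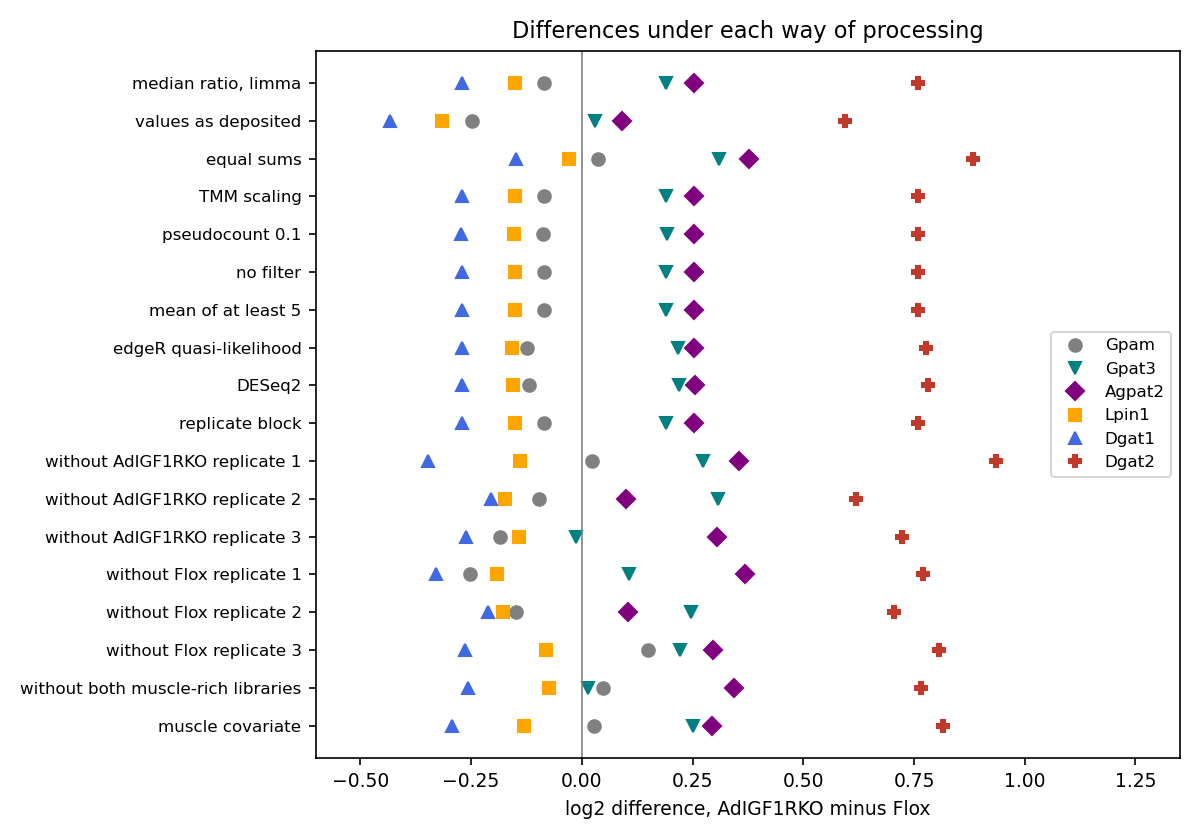
Log2 differences (horizontal axis, AdIGF1RKO minus Flox) of the 6 enzymes under each way of processing (rows). Dgat2 stays between 0.60 and 0.94 and Dgat1 between -0.43 and -0.15, while Gpam and Gpat3 have values on both sides of 0.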

How the data were processed

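Polyadenylated RNA of 6 inguinal fat samples was made into stranded libraries, per the labels' protocols, and GRCm39 is the build in the submitters' processing notes. Aligner, counting tool and annotation: not given in the sources used here. As for units, the authors deposited 1 table whose name says FPKM, but the deposited values are a signal: in each library 100% of them lay within 0.5 of a whole multiple of 1 step, so each is a read count times a constant, not divided by gene length. The lowest entry is 1 read. Analyses used the recovered reads, 60617147 to 70695527 per library. Intervals on reads would cover counting error only.

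To give scaled CPM, a median-ratio size factor was taken for each library (AdIGF1RKO 0.961 to 1.17, Flox 0.731 to 1.07) and the reads were divided by it. limma 3.58.1 (R 4.3.3) with an intensity trend was fitted to log2(value + 1) of the 12993 genes with a mean of at least 1, two-sided, with Benjamini-Hochberg adjustment at 0.05. Fold changes on this scale understate low genes. The fit was tested on simulated data. edgeR 4.0.16, DESeq2 1.42.0, other scalings (values as deposited were divided by 1000), a pseudocount of 0.1, other filters, left-out libraries, a muscle covariate and a replicate block were alternatives. Ratios were tested by exact permutation. P-values measure the spread between these samples, which the labels call mice.

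Same-numbered samples deviated together from their group means (correlations across tested genes 0.347, 0.349 and 0.834). The main limma fit and the ratio tests did not pair the libraries, and the replicate block was an alternative only. The correlations are at most a hint of pairing, from the data and not from the labels. However, AdIGF1RKO 1 correlated best with Flox 2. Deviations within a group cancel out, so the correlation of number 3 also bears on those of numbers 1 and 2, whichever are paired. Number 3 was also the muscle-rich library of both groups, with 4.93% of reads in muscle markers in AdIGF1RKO 3 and 13.6% in Flox 3. The part of muscle RNA in all of these correlations was not tested, so they cannot show that mice were paired. The members, gene lists, scaling and tests were chosen with earlier results of these data known. Named genes are the 6 members, up to 4 genes per pathway list with the smallest p, 3 genes per member nearest in profile (predicted genes passed over), Igf1r, and markers where a result needed them.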

Additional observations from a re-analysis of the deposited data

How the results depend on the processing

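All limma alternatives kept 0 of the 6 enzymes called. The number of genes called was 0 with limma and edgeR, and from 0 to 1 with limma when leaving out each library (Aldh1a7 without Flox 1). DESeq2 called 23 genes, from 19 to 56 when leaving out each library, 36 without both muscle-rich libraries and 63 with the replicate block. The median over all tested genes was -0.17 as deposited and 0.09 with equal sums, against -0.02 with median-ratio scaling (log2). Genes at an unadjusted p under 0.05 were 238 higher and 147 lower with median-ratio scaling, 57 higher and 458 lower as deposited and 219 higher and 25 lower with equal sums. Dgat2 passed in DESeq2 (0.78) and in no limma or edgeR fit, with log2 differences from 0.62 to 0.94 when leaving out each library. The DESeq2 fits that left out libraries or used a block were added after seeing the data. Gpam changed sign with equal sums (0.035), without both muscle-rich libraries (0.049), with the muscle covariate (0.028) and between -0.25 and 0.15 when leaving out each library. Gpat3 ranged from -0.014 to 0.31 when leaving out each library. The log2 difference of the Gpam to Gpat3 ratio was -0.28, and 0.035 without both muscle-rich libraries. The causes were not tested. The replicate block left the Dgat2 log2 difference at 0.76 (limma adjusted p = 0.914) and changed no limma call at an adjusted p. With 3 mice a group, a log2 difference as large as the 0.76 of Dgat2 did not pass limma.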
